A study of Mus musculus with 12 samples.

Results

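The genes of glucose use considered here are 37 listed members of glycolysis, its glucose and lactate transporters, the regulators around phosphofructokinase, the pentose phosphate pathway and the entry of pyruvate into mitochondria. They were chosen by name, as all probe sets that the platform annotation maps to these symbols, and no measured value entered the choice. Of the 37 genes, 34 had a probe set assigned to 1 gene, with 75 such probe sets out of 45101 on the array. Gpi1, Eno1 and G6pdx were not analysed here. Gapdh was represented only by 3 control probe sets, which are described apart. Among the remaining 33 genes, 31 passed the filter on dim signals, which was a normalised signal over 74.6 in at least 2 arrays. The lactate exporter Slc16a3 and the kinase Pdk2 did not pass: their highest signals were 41.5 and 39.3.

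RNA was measured on one-colour mouse arrays in 12 samples, 2 for each of 6 conditions. HAFTL, a mouse line derived from fetal liver and transformed with the Ha-ras oncogene, received beta-estradiol. C10, a line in which the myeloid factor C/EBPα can be induced, received either ethanol alone as vehicle or beta-estradiol, for times of 3, 12, 24 or 48 h. The study followed a B cell line turned into macrophages. The labels give no time for the vehicle arrays or for HAFTL. HAFTL and vehicle C10 therefore differ in the line, in the inducible factor and in estradiol, and these cannot be told apart. Each condition comes from 1 line, and the labels do not say that duplicates were separate cultures, so the p-values reflect the spread between these samples alone, which may be technical. All 4 times are compared with the same pair of vehicle arrays.

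Glycolysis splits glucose into pyruvate in the cytosol. Hexokinase traps glucose as glucose 6-phosphate, phosphofructokinase commits it to breakdown, and the lower steps yield ATP, NADH and pyruvate, which becomes lactate or enters mitochondria through pyruvate dehydrogenase. The pentose phosphate pathway branches off at glucose 6-phosphate. Its oxidative arm makes NADPH and its non-oxidative arm exchanges carbons between ribose and glycolytic sugars. Macrophages are known for active glycolysis, and phagocytes use NADPH for the oxidative burst. Several steps have isoforms encoded by different genes, with different tissue ranges and regulation.

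The promoters of 4 of the members whose signals rose are shown first: the transporters Slc2a1 and Slc2a6 and the hexokinases Hk2 and Hk3, which were first called higher after 3 h (Slc2a1 and, by a small change, Hk2), 12 h (Slc2a6) and 24 h (Hk3). The sequences are from RefSeq, build GRCm38.p6, from 250 bases before to 50 after the annotated start, in the direction of transcription. Capitals mark the core letters of hypoxia response elements, which are ACGTG or GCGTG, and the PU.1 motif GAGGAA. Each was searched on both strands, and on the reverse strand ACGTG reads CACGT, while GCGTG reads CACGC and the PU.1 motif reads TTCCTC. The positions are chr4:119108495-119108794 on the plus strand for Slc2a1, chr2:27027949-27028248 on the minus strand for Slc2a6, chr6:82774405-82774704 on the minus strand for Hk2 and chr13:55021336-55021635 on the minus strand for Hk3.
Slc2a1: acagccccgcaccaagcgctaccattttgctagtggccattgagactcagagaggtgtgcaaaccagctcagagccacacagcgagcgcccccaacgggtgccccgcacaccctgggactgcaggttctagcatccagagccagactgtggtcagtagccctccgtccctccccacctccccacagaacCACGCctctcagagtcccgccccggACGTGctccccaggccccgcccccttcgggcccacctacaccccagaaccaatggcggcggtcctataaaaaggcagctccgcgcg
Slc2a6: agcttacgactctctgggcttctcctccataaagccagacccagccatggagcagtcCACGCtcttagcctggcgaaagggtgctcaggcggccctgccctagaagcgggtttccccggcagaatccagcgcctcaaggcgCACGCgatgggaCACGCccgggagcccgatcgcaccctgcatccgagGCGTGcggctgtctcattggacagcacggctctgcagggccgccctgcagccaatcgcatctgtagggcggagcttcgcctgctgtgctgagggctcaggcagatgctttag
Hk2: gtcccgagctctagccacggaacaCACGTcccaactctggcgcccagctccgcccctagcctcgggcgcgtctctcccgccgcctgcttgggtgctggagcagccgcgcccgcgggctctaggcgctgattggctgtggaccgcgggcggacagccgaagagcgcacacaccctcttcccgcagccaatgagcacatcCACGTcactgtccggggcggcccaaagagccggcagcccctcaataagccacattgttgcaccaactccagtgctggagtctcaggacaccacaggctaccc
Hk3: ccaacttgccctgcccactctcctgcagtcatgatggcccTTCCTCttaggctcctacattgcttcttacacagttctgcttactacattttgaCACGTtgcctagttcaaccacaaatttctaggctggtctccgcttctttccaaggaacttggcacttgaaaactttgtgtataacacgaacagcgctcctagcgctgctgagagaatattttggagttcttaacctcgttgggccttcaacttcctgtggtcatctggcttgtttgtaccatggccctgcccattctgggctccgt

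Slc2a1 had 2 marked matches and Slc2a6 had 4, all within the 250 bases before the start. Hk2 had 2 matches to ACGTG, and Hk3 had 1 match to ACGTG and 1 to GAGGAA. Of the 37 members, 36 were found in the promoter table, with 53 promoters. ACGTG was in 43.4% of these promoters and in 19.6% of all 32851 promoters in the table, and GCGTG was in 58.5% and 32.4%. Among the 21263 promoters of protein-coding genes the shares were 20.9% for ACGTG and 38.5% for GCGTG. Some members have several promoters, and some of these windows overlap. Counted by gene, 19 of the 36 members had ACGTG and 25 had GCGTG in at least 1 promoter. The E box CACGTG, which contains ACGTG on both strands, was in 11.3% of the members' promoters and 7.15% of all. The C/EBP motif TTGCNNAA was in 7.55% against 10.8%, GAGGAA in 24.5% against 28.3%, and the antioxidant response element TGACNNNGC in 9.43% against 12.4%. These letter matches are a description of the windows. They were not split by the direction in which members changed, and Slc16a1, which fell late, had ACGTG and GCGTG as well.

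Most of the 31 tested members changed with estradiol, and more rose than fell. A member was called changed when the adjusted p of limma, a linear model with moderated variances fitted to all 12 arrays, was below 0.05 over all 11696 genes tested. After 3 h, 15 rose, 7 fell and 9 did not pass. In that comparison 71.0% of members were called and 48.3% of all genes, of which 20.9% rose and 27.3% fell. After 12 h, 18 rose and 7 fell, which is 80.6% of members against 51.0% of all genes (22.3% up, 28.7% down). After 24 h, 20 rose and 7 fell, or 87.1% against 57.4% (24.2% up, 33.3% down). After 48 h, 20 rose and 9 fell, or 93.5% against 62.4% (24.2% up, 38.2% down).

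The median log2 change of the members was 0.22 after 3 h, 0.53 after 12 h, 1.23 after 24 h and 0.73 after 48 h. The corresponding medians over all genes were -0.06, -0.08, -0.13 and -0.19. In 29 of the 31 members both vehicle arrays lay over the filter level. The exceptions were Pfkfb2, with neither array over it, and Hk3, with 1.

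Many calls of the members that fell depended on the scaling, and some of their directions did too. With each array scaled on its poly-A spike-in controls, the median of all genes moved to 0.63, 0.65, 0.18 and 0.38 after 3, 12, 24 and 48 h. The members then split into 13 higher and 1 lower after 3 h, 18 and 1 after 12 h, 16 and 2 after 24 h, and 17 and 3 after 48 h. No share of all genes called higher or lower was computed with this scaling, so these splits say nothing particular to the members. The sign turned in 4 of the 7 members that had fallen after 3 h, 2 of 7 after 12 h, 1 of 7 after 24 h and 2 of 9 after 48 h. The members still called lower were Eno2 after 3 h, Pdk1 after 12 h, Pfkfb3 and Slc16a1 after 24 h, and both of these with Pdha1 after 48 h. The spike-in level itself differed between duplicates, with a mean log2 signal of 8.39 and 7.40 in the 48 h arrays. Signals and changes below are from the quantile-normalised arrays, and falls are relative to the other genes on the array.

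**Figure D1:**
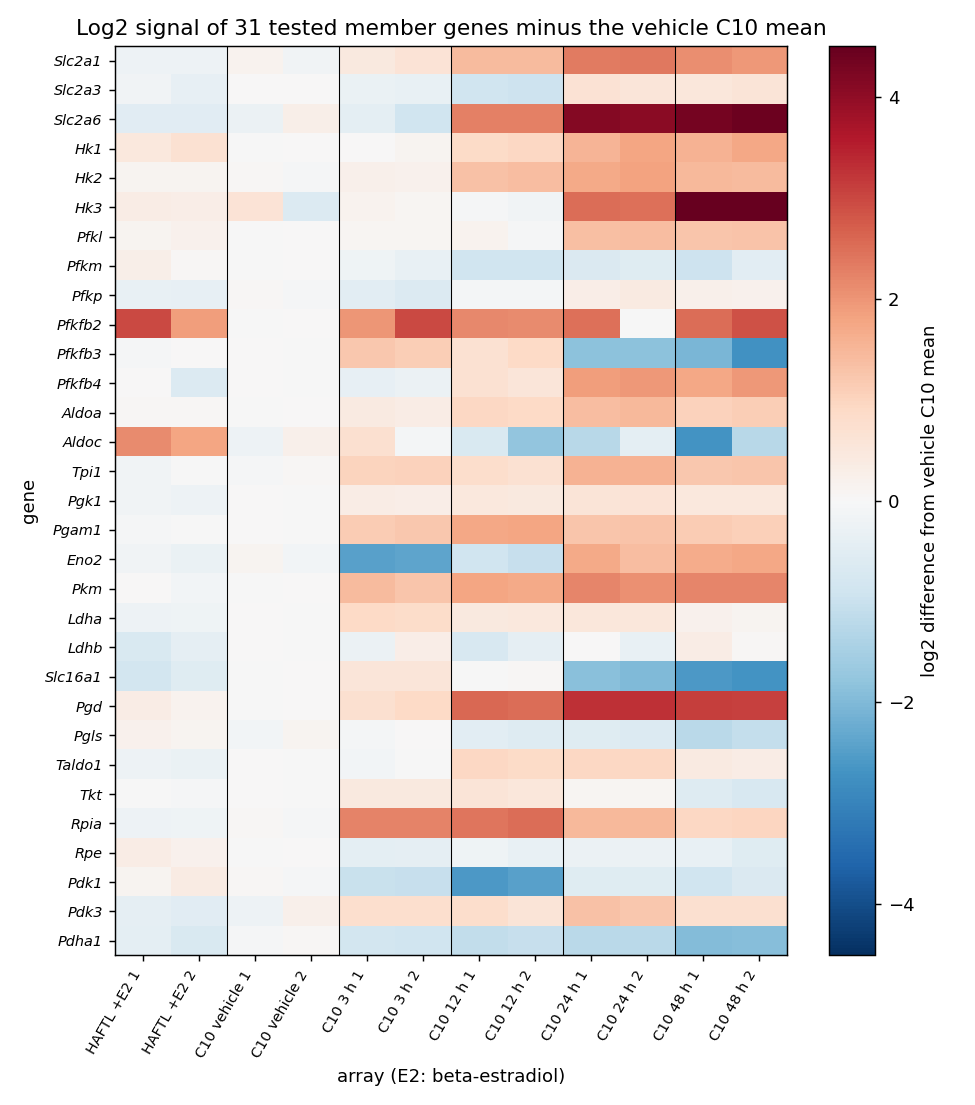
Each row is 1 of the 31 tested members and each column 1 of the 12 arrays. Colour gives the log2 signal minus the mean of the vehicle C10 arrays, red for higher and blue for lower. Slc2a6, Hk3 and Pgd are red after 24 and 48 h, while Slc16a1, Pfkfb3 and Pdha1 are blue after 48 h.

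The labelled conversion was visible in the markers. Summed normalised signal of 11 B lineage genes was 140478 and 140556 in the vehicle arrays and lay between 19680 and 21219 after 48 h. All 11 were called lower at each of the 4 times. For 8 macrophage genes the sum went from between 1290 and 1359 in vehicle C10 to between 116685 and 116768 after 48 h. Lyz2 and Cd14 gave the largest signals there. All 8 were then over the filter level in both arrays, as 5 already were in vehicle C10. Of the 8, 3 were called higher and 2 lower after 3 h, and 4 and 2 after 12 h. After 24 h and after 48 h, 7 were called higher and 0 lower. Summed signal of 7 granulocyte genes was at most 317 in vehicle C10 and reached 18172 after 24 h, with 3 genes over the level in both arrays. Sums of the erythroid and the T and NK cell genes did not exceed 312 and 267 in any array, and 5 stroma and endothelium genes ranged from 460 to 1195. The ratio of the 5′ to the 3′ control probe set of Actb was 0.582 and 0.638 in vehicle C10 and 0.746 to 0.848 in C10 with estradiol. The part of these markers and of RNA quality in the results was not tested. In such bulk samples, fewer cells of a type and less RNA per cell cannot be told apart.

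All 3 glucose transporters were higher than in vehicle C10 after 24 and 48 h, after different early courses. Slc2a1 encodes GLUT1, the widely expressed basal transporter. Its normalised signal was 1042 and 840 in vehicle C10, 1262 and 1441 after 3 h, 2538 and 2512 after 12 h, 4783 and 4872 after 24 h, and 4015 and 3634 after 48 h. Every C10 array with estradiol was above both vehicle arrays. The log2 change was 0.53 ± 0.12 (SE, n = 2 arrays per group) after 3 h and 2.37 ± 0.12 after 24 h, with limma adjusted p of 0.0069 and 2.1e-06. Both other probe sets of Slc2a1 rose at all 4 times too, by 2.33 and 2.40 after 24 h.

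Slc2a3 encodes GLUT3, a transporter of high affinity. Its signal was 2738 in both vehicle arrays, 2230 and 2173 after 3 h, 1452 and 1422 after 12 h, 4328 and 4036 after 24 h, and 3949 and 4096 after 48 h. The 12 h arrays were the lowest, and the 24 and 48 h arrays were all above vehicle C10. It fell by 0.93 on the log2 scale after 12 h (SE 0.09, limma adjusted p = 1.0e-04), and was higher by 0.61 after 24 h (limma adjusted p = 6.7e-04). The call after 3 h (-0.31) was lost without either vehicle array (-0.31 and -0.31) and without either 3 h array (-0.33 and -0.30), and with spike-in scaling the 3 h value turned to 0.47. A second probe set gave -1.09 ± 0.12 after 12 h and 0.66 ± 0.12 after 24 h, but its 0.21 after 48 h was not called. A further dim probe set was called in no comparison and the last did not pass the filter. With the mean of the 4 probe sets, the changes after 24 h (0.31) and 48 h (0.18) were not called.

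Slc2a6 encodes GLUT6, a transporter found largely on internal membranes and expressed in leukocytes. Signal was 188 and 268 in vehicle C10, 167 and 121 after 3 h, 1084 and 1098 after 12 h, 3949 and 3773 after 24 h, and 4450 and 4770 after 48 h. From 12 h on, every array was above both vehicle arrays. The rise was 17.2-fold after 24 h and 20.5-fold after 48 h, a log2 change of 4.36 ± 0.19 (limma adjusted p = 6.7e-07). The fall after 3 h, -0.66 ± 0.19, was lost without the second vehicle array (-0.41) or the second 3 h array (-0.43).

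**Figure D2:**
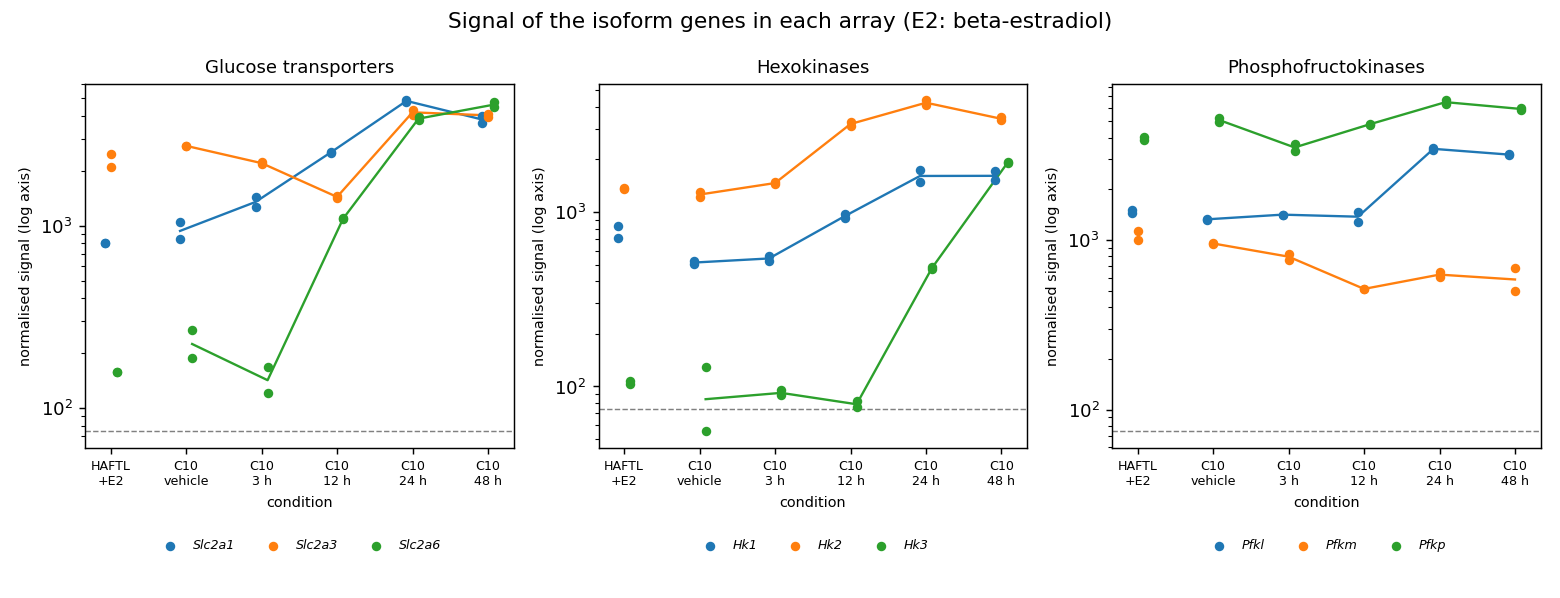
Points give the normalised signal in each array on a log axis, by condition, for transporters, hexokinases and phosphofructokinases. Lines join the means of the C10 conditions, and the dashed line is the filter level of 74.6. Heights of different genes come from different probe sets and are not comparable. Slc2a6 rises from 12 h and Hk3 from 24 h, while Pfkm is at 502 to 681 after 24 and 48 h against 947 and 959 in vehicle C10.

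Hk1 and Hk2 rose from 12 h and Hk3 from 24 h, apart from a small early call of Hk2. Hk2, the inducible form that binds mitochondria, gave 1294 and 1225 in vehicle C10, 1484 and 1447 after 3 h, 3126 and 3265 after 12 h, 4093 and 4374 after 24 h, and 3491 and 3350 after 48 h. All C10 arrays with estradiol exceeded both vehicle arrays. The rise was 2.54-fold after 12 h (log2 1.34 ± 0.07, limma adjusted p = 4.7e-06) and 3.36-fold after 24 h. The small 3 h rise of 0.22 was not called on leaving out any 1 of the 4 arrays compared, with values of 0.18 and 0.26 without a vehicle array and 0.20 and 0.24 without a 3 h array.

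Hk1, the ubiquitous form, had signals of 504 and 522 in vehicle C10, 522 and 562 after 3 h, 922 and 969 after 12 h, 1487 and 1741 after 24 h, and 1521 and 1708 after 48 h. It rose after 12 h by 0.88 ± 0.11 and after 24 and 48 h by 1.65 ± 0.11 (limma adjusted p = 7.4e-06 after 48 h). A second probe set rose by 1.41 ± 0.27, 2.44 ± 0.27 and 2.18 ± 0.27 at these times. A further probe set shared with other genes was not used.

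Hk3 is the hexokinase known from myeloid cells. Its brighter probe set gave 129 and 55.4 in vehicle C10, 94.9 and 89.0 after 3 h, 82.3 and 76.0 after 12 h, 486 and 471 after 24 h, and 1904 and 1927 after 48 h. The values after 24 and 48 h lay above all earlier ones, and those after 3 and 12 h lay between the vehicle arrays. The fitted rise was 22.6-fold after 48 h (on the log2 scale 4.5 ± 0.32, limma adjusted p = 9.3e-06), and is uncertain because 1 vehicle array was under the filter level. The step from 24 to 48 h was a 4-fold rise (limma adjusted p = 0.0038). The second probe set of Hk3 lay at or near the floor of 16 up to 12 h, with a highest signal of 45.1. It then gave 901 and 725 after 24 h and 3345 and 3287 after 48 h. That is at least 10.8-fold above vehicle C10 after 24 h and at least 44.4-fold after 48 h. This probe set passed the filter only through those 24 and 48 h arrays, so its limma call adds no support.

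Among the phosphofructokinases the liver form rose late, the muscle form fell and the probe sets of the platelet form disagreed. Pfkl, the liver form, gave 1308 and 1337 in vehicle C10, 1411 and 1407 after 3 h, 1468 and 1279 after 12 h, 3399 and 3481 after 24 h, and 3157 and 3207 after 48 h. The 24 and 48 h arrays stood clear of the others. Changes were 0.09 and 0.05 after 3 and 12 h, neither called, and 1.38 ± 0.08 and 1.27 ± 0.08 after 24 and 48 h (limma adjusted p = 4.1e-06 and 4.2e-06). A second probe set gave 1.35 ± 0.11 and 1.26 ± 0.11 after 24 and 48 h. The last and dimmest gave 0.44 ± 0.19, not called, and 0.97 ± 0.19, called.

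Pfkm, the muscle form, had signals of 947 and 959 in vehicle C10, 831 and 764 after 3 h, 516 and 513 after 12 h, 603 and 647 after 24 h, and 502 and 681 after 48 h. No C10 array with estradiol reached the vehicle arrays. It fell by 0.89 after 12 h (SE 0.14, limma adjusted p = 0.0013) and by 0.71 after 48 h, and was not called at these times with spike-in scaling.

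The brightest probe set of Pfkp, the platelet form, gave 5231 and 4946 in vehicle C10, 3672 and 3347 after 3 h, 4783 and 4831 after 12 h, 6312 and 6656 after 24 h, and 5952 and 5865 after 48 h. It was lower by 0.54 ± 0.07 after 3 h (a value of 0.31 with spike-in scaling and 0.33 with the mean of its probe sets), and higher by 0.35 ± 0.07 after 24 h. Its call after 48 h (0.22) was lost without either vehicle array (0.26 and 0.18), either 12 h array (0.22 both times) or either 48 h array (0.21 and 0.23). The probe sets of Pfkp disagreed: a second was called at no time, with values of 0.14 to 0.65 ± 0.26, and the last was called higher at all 4 times, by 1.27 to 1.45 ± 0.21.

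Within-array ratios between isoforms cancel any scaling of whole arrays. The log2 ratio of each pair was tested over the 5 C10 conditions with an exact permutation test of the F ratio, two-sided by construction, for which the 945 ways of pairing 10 arrays allow no p below 0.0011. Of 19 listed pairs, 15 had both genes tested, and all 15 had a Benjamini-Hochberg adjusted p under 0.05, with 0.037 the largest. The count says nothing particular to isoforms, since no share over all gene pairs was computed and 48.3% to 62.4% of single genes were called at the 4 times. It includes 2 pairs with Pfkfb2 and 1 with Aldoc, which are dim. The ratio of Slc2a1 to Slc2a3 moved by 2.36 after 12 h and 1.47 after 48 h on the log2 scale (exact permutation p = 0.0011, adjusted 0.0079). Slc2a1 relative to Slc2a6 moved by -2.33 after 48 h, with the same p values. Pfkl relative to Pfkm moved by 1.97 (exact permutation p = 0.0032, adjusted 0.0095).

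For the hexokinases, Hk2 relative to Hk3 moved by 1.44 after 12 h and by -3.06 after 48 h (exact permutation p = 0.0074, adjusted 0.012). The vehicle arrays differed by 1.15 in this ratio, and with either of them left out, an alternative added after the data were seen, the 12 h value was 0.87 or 2.01 and the 48 h value -3.63 or -2.48. Hk1 relative to Hk2 moved far less, by -0.46 after 12 h and 0.21 after 48 h (exact permutation p = 0.0095, adjusted 0.014), and gave p = 0.052 in the exact permutation test with the mean of the probe sets of each gene. With that mean, 12 pairs had both genes tested and this was the 1 pair not called.

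The enzymes that set the level of fructose 2,6-bisphosphate, the main activator of phosphofructokinase, had parted by 24 and 48 h, when Pfkfb3 was lower and Pfkfb4 higher than in vehicle C10. Pfkfb3, the inducible form with high kinase activity, gave 1135 and 1126 in vehicle C10, 2619 and 2435 after 3 h, 1811 and 2130 after 12 h, 317 and 317 after 24 h, and 270 and 172 after 48 h. Signals were above vehicle C10 in all 3 h and 12 h arrays and below it in all 24 h and 48 h arrays. It rose by 1.16 ± 0.19 after 3 h (limma adjusted p = 0.0016) and fell by 2.39 after 48 h (SE 0.19, limma adjusted p = 1.6e-05). The 12 h rise of 0.80 was 0.68 and not called without the second 12 h array. A second, dim probe set of Pfkfb3 was called after 48 h alone among the 4 times, at least 1.48-fold lower.

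Pfkfb4, another isoenzyme of the same family, gave 404 and 389 in vehicle C10, 307 and 333 after 3 h, 640 and 574 after 12 h, 1481 and 1536 after 24 h, and 1325 and 1538 after 48 h. The 24 and 48 h arrays were the highest. It rose by 1.93 after 24 h and by 1.85 after 48 h (SE 0.19, limma adjusted p = 6.8e-05 after 48 h), while its 12 h rise of 0.61 was lost without any 1 of the 4 arrays compared (0.53 to 0.69). The ratio of Pfkfb3 to Pfkfb4 moved by 1.47 after 3 h and -4.24 after 48 h (exact permutation p = 0.0021, adjusted 0.0095).

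Pfkfb2 was dim, with 16 and 16.4 in vehicle C10 and no array above 128. Its other probe sets did not pass the filter, and in the probe set used 1 of the 3 h arrays, at 63.6, was under that level. By the group means, Pfkfb2 was at least 1.20-fold higher after 3 h and at least 1.39-fold higher after 48 h (limma adjusted p = 0.029 and 0.015). Both calls were lost without either vehicle array (2.45 and 2.49 after 3 h, 2.67 and 2.70 after 48 h, log2) and the 3 h call also without the second 3 h array (1.97). It was also counted as called higher after 12 h (limma adjusted p = 0.045), but all 4 arrays compared lay under the filter level, so no size is given, and the call was lost on leaving out any 1 of 10 arrays.

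In the middle and lower part of glycolysis, Aldoa, Tpi1, Pgk1, Pgam1 and Pkm rose at all 4 times. With spike-in scaling all 5 were higher at each time, though the values of Pgk1 after 3 and 24 h (1.19 and 1.17) were then not called. That scaling also raised the median of all genes at each time, so it adds no support to these rises. Aldoa, the aldolase of most tissues, went from 8927 and 8946 in vehicle C10 to 23453 and 24688 after 24 h and 18156 and 19438 after 48 h. It rose 2.69-fold after 24 h (limma adjusted p = 1.7e-06). Of its 4 other probe sets, 3 rose by 1.46 to 1.71 after 24 h and 1 by 0.23, all on the log2 scale.

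Pkm, the pyruvate kinase of non-liver tissues, gave 2787 and 2923 in vehicle C10, 7722 and 6731 after 3 h, 9694 and 9415 after 12 h, 13106 and 12038 after 24 h, and 13062 and 13130 after 48 h. The 3 h arrays already lay well above vehicle C10. The rise was 2.53-fold after 3 h and 4.59-fold after 48 h (log2 2.20 ± 0.09, limma adjusted p = 5.4e-07). It has 1 probe set on the array, and the splice forms M1 and M2 were not told apart.

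Pgam1, phosphoglycerate mutase, peaked earlier, from 4813 and 4716 in vehicle C10 to 10530 and 11185 after 3 h, 15981 and 16264 after 12 h, 11214 and 11630 after 24 h, and 10419 and 10017 after 48 h. It was 3.38-fold higher after 12 h and fell by 0.50 from 12 to 24 h on the log2 scale. Tpi1, triose phosphate isomerase, gave 4155 and 4372 in vehicle C10, 8554 and 8714 after 3 h, 7351 and 6919 after 12 h, 12663 in both arrays after 24 h, and 9872 and 10088 after 48 h. All C10 arrays with estradiol were above the vehicle arrays, and its other probe sets rose at all 4 times as well.

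Pgk1, phosphoglycerate kinase, rose less, from 12349 and 12104 in vehicle C10 to 18413 and 18634 after 24 h (log2 0.60 ± 0.06, limma adjusted p = 9.5e-05). Its other probe sets gave 1.15 ± 0.08 and 1.05 ± 0.21 at that time. The 3 control probe sets of Gapdh, glyceraldehyde 3-phosphate dehydrogenase, rose at all 4 times, by 0.44 to 0.61 after 3 h and by 0.57 to 0.75 after 48 h. They were added to a fit of every probe set after the data had been seen. In that fit 52 of 66 member probe sets were called after 48 h, 39 higher and 13 lower, and 55.6% of all probe sets tested.

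Eno2, the enolase best known from neurons, fell early and rose late. Signal was 249 and 212 in vehicle C10, 42.1 and 44.2 after 3 h, 123 and 113 after 12 h, 756 and 600 after 24 h, and 738 and 763 after 48 h. The 3 h arrays were under the filter level and the 24 and 48 h arrays above vehicle C10. It was at least 3.08-fold lower after 3 h (limma adjusted p = 6.7e-06) and 3.26-fold higher after 48 h (log2 1.71 ± 0.13, limma adjusted p = 1.3e-05). Aldoc, the brain aldolase, was dim, with 89.7 and 123 in vehicle C10 and 16.3 and 43.9 after 48 h. It was at least 1.41-fold lower after 48 h (limma adjusted p = 0.017), a call lost without the second vehicle array (-1.75, log2) or the first 48 h array (-1.26). A second and dimmer probe set of Aldoc was called after 3 h alone among the 4 times. It was at least 1.12-fold higher there, but it passed the filter only through those 3 h arrays, so its limma call adds no support.

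At the lactate step, Ldha rose early and the transporter Slc16a1 fell late. Ldha, the lactate dehydrogenase subunit that favours lactate formation, gave 10319 and 10240 in vehicle C10, 19080 and 18156 after 3 h, 13809 and 14176 after 12 h, 14708 and 14495 after 24 h, and 11771 and 11067 after 48 h. The 3 h arrays were the highest. It rose by 0.86 ± 0.07 after 3 h (limma adjusted p = 3.4e-05), and the 48 h value of 0.15 was not called. The brightest probe set of Ldhb, the other main subunit, lay between 103 and 214 in the C10 arrays and was called at no time. The other probe sets of Ldhb did not pass the filter.

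Slc16a1, the proton-linked lactate and pyruvate transporter MCT1, gave 8589 and 8984 in vehicle C10, 12831 and 12800 after 3 h, 8617 and 9162 after 12 h, 2404 and 2228 after 24 h, and 1472 and 1342 after 48 h. It was above vehicle C10 in both 3 h arrays and far below it in the last 4. It rose by 0.54 ± 0.11 after 3 h (limma adjusted p = 0.0042) and was 6.25-fold lower after 48 h (log2 -2.64 ± 0.11, limma adjusted p = 5.1e-07). A second probe set was at the floor of 16 in vehicle C10 and after 24 and 48 h, and at 122 and 68.5 after 3 h.

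**Figure D3:**
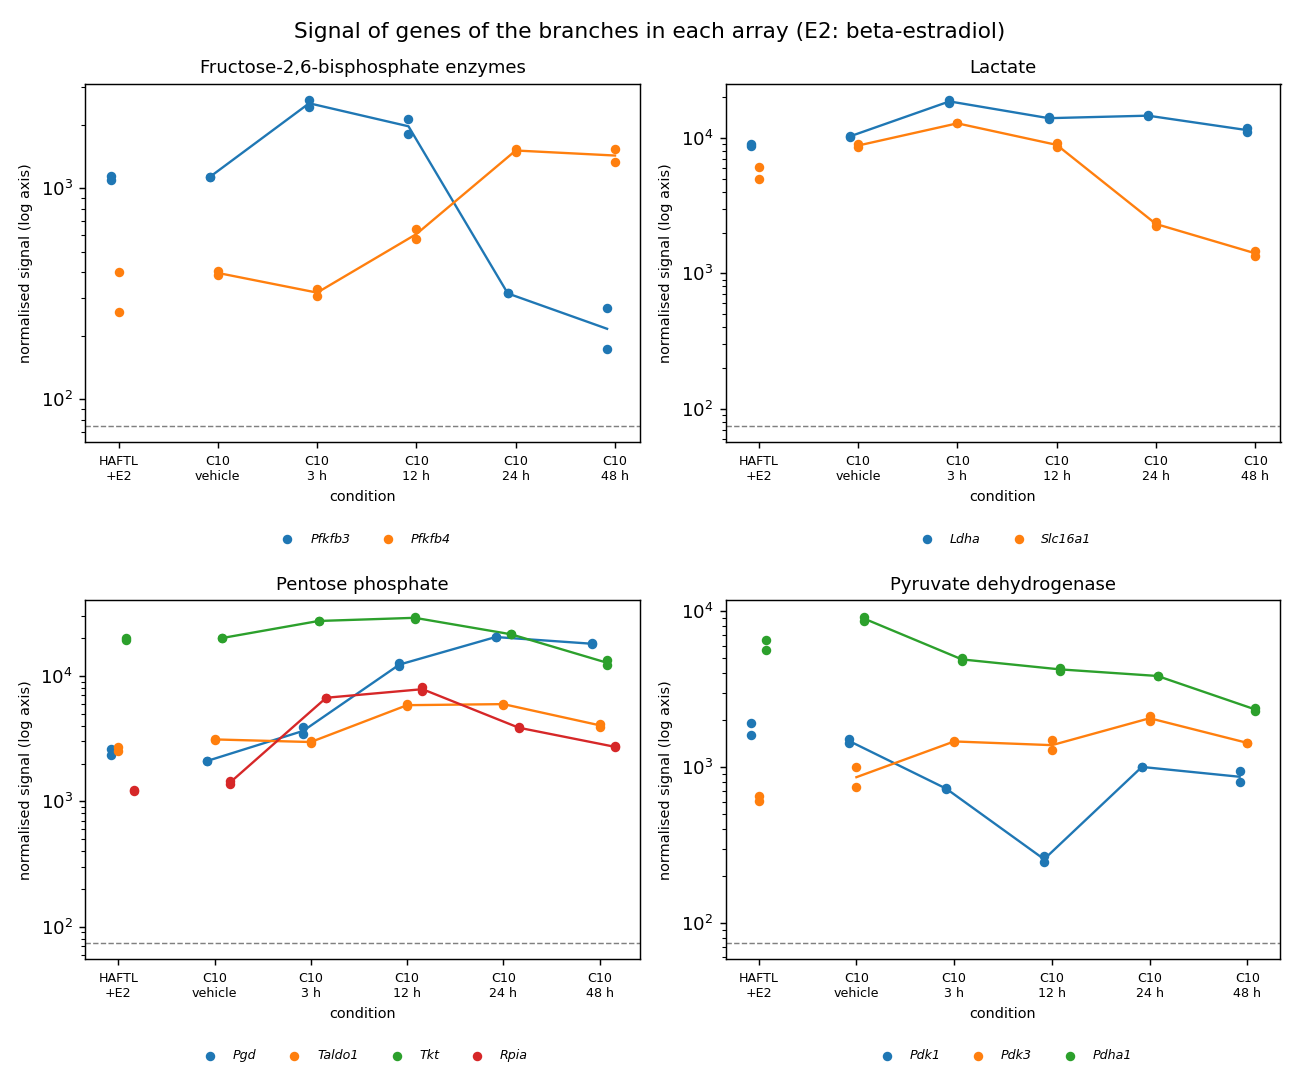
Points give the normalised signal in each array on a log axis for the fructose 2,6-bisphosphate enzymes, the lactate step, the pentose phosphate pathway and pyruvate dehydrogenase. Lines join the means of the C10 conditions and the dashed line is the filter level of 74.6. Heights of different genes are not comparable. Pfkfb3 ends at 172 to 270 while Pfkfb4 ends at 1325 to 1538, and the brightest probe set of Pdk1 is lowest after 12 h.

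In the pentose phosphate pathway, 3 of the 6 tested members rose and 3 fell after 48 h, where 24.2% of all genes rose and 38.2% fell. With spike-in scaling none of the 3 that fell was called lower, and the values of Tkt (0.09) and Rpe (0.10) turned sign. Pgd, 6-phosphogluconate dehydrogenase of the NADPH-forming arm, gave 2082 and 2105 in vehicle C10, 3414 and 3881 after 3 h, 12658 and 11941 after 12 h, 20464 and 20310 after 24 h, and 18238 and 17814 after 48 h. Each C10 array with estradiol was above the vehicle arrays. The rise was 5.87-fold after 12 h, 9.74-fold after 24 h and 8.61-fold after 48 h (log2 3.11 ± 0.09, limma adjusted p = 9.6e-08). Its other 3 probe sets rose by 2.96 to 3.88 after 48 h. Pgls, the lactonase of the same arm, went the other way, from 4177 and 4879 in vehicle C10 to 1950 and 2146 after 48 h. It fell by 1.14 (SE 0.10, limma adjusted p = 3.0e-05), and its 12 h value of -0.52 turned to 0.31 with spike-in scaling.

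Rpia, ribose 5-phosphate isomerase, rose at once. Signal was 1447 and 1373 in vehicle C10, 6710 and 6667 after 3 h, 7584 and 8083 after 12 h, 3844 and 3878 after 24 h, and 2698 and 2735 after 48 h. The 3 and 12 h arrays were the highest, and the 24 and 48 h arrays also stayed above vehicle C10. It was 4.74-fold higher after 3 h (log2 2.25 ± 0.07, limma adjusted p = 7.9e-07) and 1.93-fold higher after 48 h.

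Taldo1 and Tkt, transaldolase and transketolase, exchange carbons between pentoses and glycolytic sugars. Taldo1 gave 3142 and 3086 in vehicle C10, 2892 and 3045 after 3 h, 5973 and 5704 after 12 h, 5889 and 6015 after 24 h, and 4129 and 3944 after 48 h. Its rise was 0.91 ± 0.07 after 12 h (limma adjusted p = 3.1e-05) and 0.37 ± 0.07 after 48 h. Tkt gave 20101 and 19948 in vehicle C10, 27480 and 27264 after 3 h, 29619 and 28416 after 12 h, 21393 and 21495 after 24 h, and 13271 and 12142 after 48 h. It was above vehicle C10 early and below it at the end: 0.53 ± 0.07 after 12 h and -0.66 ± 0.07 after 48 h (limma adjusted p = 4.1e-04 and 7.3e-05), the latter 0.09 with spike-in scaling. A second probe set gave 0.93 ± 0.09 and -0.58 ± 0.09 at these times, and the last and dimmest was called after 3 h only (0.70 ± 0.16) among the 4 times.

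Rpe, the epimerase of the same branch, was lower by 0.25 to 0.44 at the 4 times. Values with spike-in scaling were 0.31, 0.48, 0.02 and 0.10 after 3, 12, 24 and 48 h, and a second probe set gave 0.10 after 48 h. The 12 h call of Rpe (-0.25) was lost on leaving out any 1 of 10 arrays (-0.32 to -0.18) and its 24 h call on leaving out any 1 of 6 (-0.27 to -0.25).

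At the entry to mitochondria, Pdha1 fell, and the kinases that switch the complex off parted. Pdha1, the catalytic alpha subunit of pyruvate dehydrogenase, gave 8706 and 9227 in vehicle C10, 4995 and 4821 after 3 h, 4124 and 4352 after 12 h, 3859 and 3825 after 24 h, and 2301 and 2384 after 48 h. Each C10 array with estradiol was below the vehicle arrays. It was 3.83-fold lower after 48 h (log2 -1.94 ± 0.09, limma adjusted p = 7.8e-07), and a second probe set gave -2.80 ± 0.14. The 3 h value of -0.87 was 0.05 with spike-in scaling.

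The brightest probe set of Pdk1, pyruvate dehydrogenase kinase 1, gave 1521 and 1433 in vehicle C10, 729 and 723 after 3 h, 245 and 268 after 12 h, 1002 in both arrays after 24 h, and 797 and 942 after 48 h. The course was a dip, with its lowest arrays after 12 h. It was 5.76-fold lower after 12 h (log2 -2.53 ± 0.11, limma adjusted p = 2.4e-06) and rose again by 1.97 ± 0.11 from 12 to 24 h (limma adjusted p = 8.8e-06). All 3 of its other probe sets fell after 12 h, but after 24 h none of them was called. After 12 h the log2 change was -2.35 in one and -2.82 in another, in which 1 of the 12 h arrays was under the filter level. The last was lowest after 3 h, at 16 and 25.3, and gave 64.3 and 57.6 after 12 h, all under that level and at least 2.77-fold lower than in vehicle C10. Pdk3 gave 741 and 1001 in vehicle C10, 1457 and 1464 after 3 h, 1495 and 1278 after 12 h, 2138 and 1981 after 24 h, and 1432 and 1425 after 48 h. It rose by 1.26 ± 0.14 after 24 h (limma adjusted p = 1.7e-04). The ratio of Pdk1 to Pdk3 moved by -3.21 after 12 h and -1.50 after 48 h (exact permutation p = 0.0032, adjusted 0.0095).

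The steps between times, whose log2 differences use no vehicle array, held most of their rises up to 24 h. The spread behind their calls came from all 12 arrays, those of vehicle C10 and HAFTL among them. From 3 to 12 h, 13 members rose and 7 fell, 64.5% of the members against 33.2% of all genes (16.6% each way). From 12 to 24 h, 16 rose and 5 fell, 67.7% against 45.4% (22.3% up, 23.1% down). From 24 to 48 h, 1 rose and 11 fell, 38.7% against 27.4% (9.47% up, 17.9% down), and the member that rose was Hk3. With spike-in scaling the counts called at these steps were 2, 7 and 1. On leaving out 1 array the calls from 3 to 12 h ranged from 16 to 22, those from 12 to 24 h from 20 to 22, and those from 24 to 48 h from 9 to 13.

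Between HAFTL with estradiol and vehicle C10, the share of members called was near that of all genes. Of the 31, 5 were called, or 16.1% against 15.2% of all genes (7.11% higher, 8.12% lower), with a median log2 difference of -0.04. The count depended on the fit, with 0 called when only the groups compared were used and 13 with an intensity trend. Hk1 was higher in HAFTL, at 712 and 830 against 504 and 522 (log2 0.58 ± 0.11, limma adjusted p = 0.015), and its second probe set by 1.55 ± 0.27. Slc16a1 was lower, at 4963 and 6072 against 8589 and 8984 (-0.68 ± 0.11, limma adjusted p = 0.0069), but 0.10 with the mean of its 2 probe sets. Pdha1 was lower at 6529 and 5621 (-0.57 ± 0.09, limma adjusted p = 0.0062). Pfkp (-0.35) and Taldo1 (-0.26) were lower too. Pgk1 was not called (-0.20), but its other probe sets were, at -1.16 ± 0.21 and -0.33 ± 0.08 (limma adjusted p = 0.018 and 0.048 over all probe sets).

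The call of Hk1 in HAFTL was lost without either vehicle array (0.56 and 0.61) and without the second HAFTL array (0.47). That of Pfkp was lost without any of the 4 arrays compared (-0.39 to -0.31), and that of Taldo1 without any of the 12 arrays (-0.31 to -0.21). Aldoc, at 458 and 364 in HAFTL, was not called (1.96 ± 0.57, limma adjusted p = 0.058). With the HAFTL and vehicle arrays fitted alone, limma called none of the members, and 8 of the 31 had an unadjusted p below 0.05.

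Other genes of neighbouring pathways were read from lists of names. The citric acid cycle list, with pyruvate entry, had 1 of 28 tested genes higher and 18 lower after 48 h, and a median of -0.61 against -0.19 for all genes. That is 67.9% called, against 62.4% of all genes at that time (24.2% up, 38.2% down), which is the background for all lists after 48 h. Its members with the largest changes were Idh1, the cytosolic NADPH-forming isocitrate dehydrogenase (3.32 ± 0.14), and the mitochondrial enzymes Suclg2 (-2.11 ± 0.08), Me2 (-1.91 ± 0.15) and Idh2 (-1.66 ± 0.06). After 3 h the same list had 8 higher and 5 lower, or 46.4% called against 48.3% of all genes, a share near the background. The side branches into hexosamines, serine and glycerol phosphate had 1 of 14 higher and 9 lower after 48 h (71.4% called), with a median of -1.13. The serine pathway genes Shmt2 (-3.10 ± 0.09), Psph (-2.89 ± 0.14), Psat1 (-2.57 ± 0.14) and Phgdh (-2.27 ± 0.08) fell most.

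Gluconeogenesis and glycogen genes had 6 of 14 higher and 3 lower after 48 h, with a median of 0.29, and the 64.3% called is near the 62.4% of all genes. Pygl, the liver glycogen phosphorylase, was at least 25-fold higher, and Ugp2, which makes UDP-glucose, was higher by 2.52 ± 0.08. Pck2 and Pcx, enzymes of early gluconeogenesis, fell by 1.66 and 1.63. The remaining isoenzymes and transporters of hexoses and lactate had 2 of 17 higher and 8 lower, with a median of -0.66, and 58.8% called against the same 62.4%. The transporters Slc2a9 (-2.66 ± 0.34, with 1 of the 48 h arrays under the filter level) and Slc2a5 (at least 1.02-fold lower), the muscle enolase Eno3 (-1.44 ± 0.20) and the phosphatase Pgam5 (-1.35 ± 0.08) were among those that fell.

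Regulators and targets of sugar and hypoxia sensing had 15 of 22 higher and 4 lower after 48 h (86.4% called against 62.4%), with a median of 0.72. Egln3, an oxygen-sensing prolyl hydroxylase, was at least 1.09-fold higher and Ankrd37, a hypoxia target, was higher by 2.10 ± 0.14. Vegfa, also a hypoxia target, and the transcription factor Myc fell by 1.93 and 1.77. After 3 h the list had 2 higher and 9 lower, or 11 of 22 called where 48.3% of all genes were. Nrf2 and NADPH genes had 5 of 11 higher and 5 lower after 48 h (90.9% called against 62.4%), with a median of -0.22: Srxn1 was at least 1.78-fold higher, Hmox1 and Nfe2l2 rose by 1.47 ± 0.38 and 1.19 ± 0.08, and Cat, catalase, fell by 0.85. The calls in all these lists are from limma at an adjusted p below 0.05.

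**Figure D4:**
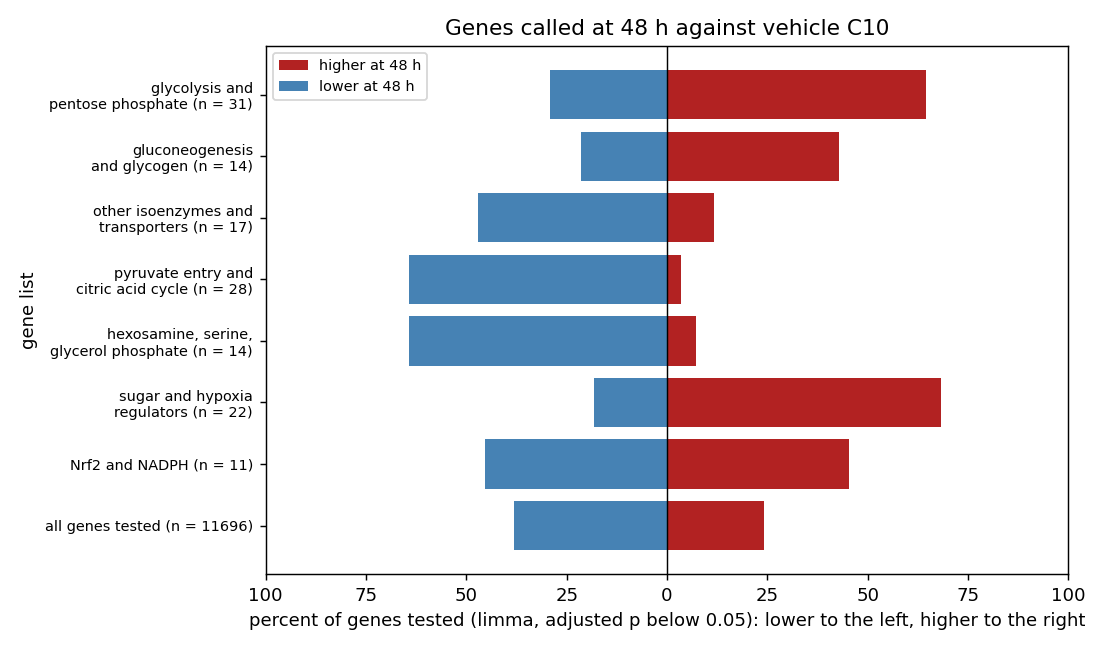
Bars give, for each list of genes, the percent of its tested genes called lower (left) and higher (right) after 48 h against vehicle C10. The 31 glycolysis and pentose phosphate genes had 20 higher and 9 lower, the 28 genes of pyruvate entry and the citric acid cycle 1 and 18.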

How the data were processed

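The table as deposited holds linear intensities for each probe set in each array. They had been scaled by the authors, since the mean after trimming 2% at each end was 500.003 in all 12. How probe intensities were summarised is not given in the sources used here. The array medians ranged from 68.5 to 85.0, so log2 values were quantile-normalised over all 45101 probe sets, 64 control probe sets were set aside, and values under 16 were raised to 16. Probe sets were named from the platform annotation, with symbols updated through RefSeq (GRCm38.p6): 34958 had 1 gene, of which 34754 were found there, and 932 had several and were not used. A gene was its probe set with the highest mean. Genes with log2 signal over 6.22, the median, in at least 2 arrays were tested. A fold given as at least is the brighter mean over that level, used where both arrays of the dimmer group lay under it.

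Changes were tested with limma (3.58.1, R 4.3.3), in which 6 group means were fitted to all 12 arrays (6 residual degrees of freedom, prior 1.53), two-sided, with Benjamini-Hochberg adjustment over 11696 genes, or over all probe sets where those are described. Errors are standard errors of this fit. Programs were tested on simulated data. The precision is limited by the number of arrays. Sample titles gave the groups and replicate numbers. Same-numbered arrays did not deviate together: over 15 pairs of groups the correlation of deviations from the group means was -0.03 to 0.04. All members are named, every probe set of the hexokinases, phosphofructokinases and transporters is described, and of each other list up to 4 called genes with the largest change after 48 h are named. The members, lists and tests were chosen with earlier results of these data known. Alternatives changed the normalisation, filter, floor, pseudocount, probe set rule, variance prior, arrays in the fit, pairing and minimum change. Protein sequences were not used here.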

Additional observations from a re-analysis of the deposited data

Results flagged for a closer look

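For 7 members, changes against vehicle C10 were called in opposite directions for different times. The share of all genes with such opposite calls was not computed, and 48.3% to 62.4% of all genes were called at the 4 times. The count therefore says nothing particular to the members. The genes and times were picked for these opposite calls, so limma's test of the difference between the times, which passed, adds no support. The log2 difference between times was 1.54 ± 0.09 for Slc2a3, 24 h minus 12 h, 5.02 ± 0.19 for Slc2a6, 48 h minus 3 h, and 4.12 ± 0.13 for Eno2, 48 h minus 3 h. It was 0.89 ± 0.07 for Pfkp, 24 h minus 3 h, a gene whose probe sets disagreed. Pfkfb3 and Slc16a1 ran the other way, with -3.55 ± 0.19 and -3.19 ± 0.11 for 48 h minus 3 h. Tkt gave -1.19 ± 0.07 for 48 h minus 12 h. The 24 h rise of Slc2a3 was not called with the mean of its probe sets (0.31). With spike-in scaling the early value of Pfkp and the late value of Tkt turned to 0.31 and 0.09, and the early call of Slc2a6 was lost without the second vehicle array (-0.41) or the second 3 h array (-0.43).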

How the results depend on the processing

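Counts of members called in limma stayed within 1.5 times of those reported, except as follows. With spike-in scaling the counts were 14 after 3 h, 1 in HAFTL, and 2, 7 and 1 for the steps to 12, 24 and 48 h. In HAFTL the count was 8 with median centring, 9 with a filter at the 70th percentile, 13 with an intensity trend, and 0 with only the groups compared (8 at an unadjusted p below 0.05). With only the groups compared, 5 changed from 24 to 48 h. Asking also for a log2 change of at least 1, 8, 10 and 19 were called after 3, 12 and 48 h, 0 in HAFTL, and 5, 10 and 1 for the 3 steps. Leaving out 1 array at a time gave 18 to 23, 21 to 24, 26 to 27 and 26 to 29 for the 4 times, 2 to 5 in HAFTL, and 16 to 22, 20 to 22 and 9 to 13 for the steps.

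Signs turned with spike-in scaling for Pdha1 (0.05), Pfkp (0.31), Rpe (0.31) and Slc2a3 (0.47) after 3 h, Pgls (0.31) and Rpe (0.48) after 12 h, Rpe after 24 h (0.02) and 48 h (0.10), Tkt after 48 h (0.09), and Hk2 from 12 to 24 h (-0.02). With the mean of the probe sets they turned for Pfkp (0.33) and Slc2a3 (0.13) after 3 h, Pfkp after 12 h (0.48), and Pfkp (0.20) and Slc16a1 (0.10) in HAFTL. Hk3 was not called after 3 h or 12 h with all arrays. Without 1 or the other vehicle array it ranged from -0.49 to 0.73 after 3 h and from -0.71 to 0.51 after 12 h. The -0.49 without the second vehicle array and the 0.51 without the first were called, against the sign with all arrays. Its early values therefore depend on vehicle signals of 129 and 55.4. The cause was not tested.

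With the replicate number as a block, counts were 21, 24, 27 and 29 for the 4 times, 4 in HAFTL, and 20, 21 and 12 for the steps. Same-numbered arrays did not deviate together, so no shared offset by replicate number was seen. The labels do not say what the numbers stand for. With the Gapdh control probe sets, added after the data were seen, 52 member probe sets were called after 48 h, and 49 without. All 15 isoform pairs were called with no quantile normalisation and with a floor of 64. Signals near the floor limit what can be said of Pfkfb2, Aldoc, Hk3, Slc16a3 and Pdk2.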
